A study of Mus musculus with 141 samples.

Results

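Solute carriers are the membrane proteins that move nutrients, ions, metals, vitamins and metabolites across the plasma membrane and the membranes of organelles. The genes described here were the *Slc* genes of mouse lung epithelial cells, taken as every symbol that starts with Slc and a digit, without *Slc34a2*, *Slc12a2*, *Slc40a1*, *Slc9a3r1* and *Slc9a3r2*, and with a mean of 10 CPM or more over the kept cells, where CPM is the reads of a gene per 1000000 reads of the cell. Of 17136 genes counted, 223 carried such a symbol. All but 97 of these (56.5%) reached the floor, and 8 of the 97 had no read in any kept cell. The carriers at the floor belonged to 37 families, of which 11 had 1 member, and the largest were Slc25 with 21, Slc35 with 10, Slc38 and Slc39 with 7 each, and Slc7 and Slc16 with 6 each. The 2 symbols *Slc4a1ap* and *Slc7a6os* met the rule by their names although they are not carriers. Just above the floor stood *Slc26a4* at a mean of 10.1 CPM and *Slc35c2* at 10.5 CPM, and just below it *Slc35a2* at 8.95 CPM and *Slc25a40* at 8.86 CPM.

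Most carriers of the Slc25 family sit in the inner mitochondrial membrane, Slc35 carriers bring nucleotide sugars into the secretory pathway, Slc39 and Slc30 carriers move zinc and other metals in opposite directions, and Slc16 carriers move monocarboxylates such as lactate. Type 1 cells form the thin gas-exchange surface of the alveolus, type 2 cells make surfactant, club cells are secretory cells of the airway, and ciliated and basal cells are its motile and progenitor cells. Many carriers work only with a partner subunit, such as the heavy chain *Slc3a2* for amino acid carriers of the Slc7 family and basigin (*Bsg*) for lactate carriers of the Slc16 family.

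All cells came from 1 mouse, a 4-month-old male of strain 129SV in the labels (129S6/SvEvTac in the study's methods) and genotype ACID;R26tdTomato, in which Cre recombinase placed in the *Aqp5* gene switches on the red reporter tdTomato for good. CD31- CD45- E-cadherin+ tdTomato+ lung cells were sorted and captured on a Fluidigm C1 chip, so the sort aimed at epithelial cells that had at some time expressed *Aqp5*, and no other genotype or treatment was measured. The 92 cells with a mitochondrial share of reads under 15% were kept and 49 others were left out. The kept cells had 142003 to 2170760 reads each and a median of 553963. The labels name every cell an alveolar type 1 cell.

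Classes were set by the reads of 3 genes. Type 1 cells (45) had at least 5000 CPM of *Ager*, type 2 cells (11) had at least 8000 CPM of *Sftpc*, and the remaining cells were split at 50000 CPM of *Scgb1a1* into 12 Scgb1a1-high cells and 24 remaining cells. For *Ager* the lowest cell inside had 9335 CPM and the highest outside 1402 CPM. For *Scgb1a1* (41995 CPM) and *Sftpc* (7774 CPM) the highest cell outside lay close under the minimum, and the lowest inside had 174821 and 25437 CPM. Against marker lists, 45 of 45 type 1 cells were high in the type 1 list, 10 of 11 type 2 cells in the type 2 list and 11 of 12 Scgb1a1-high cells in the club list. The 24 remaining cells were a mixture, with 12 high in the ciliated list, 6 in the basal list, 5 in the club list and 1 in the fibroblast list. These numbers overlap, since 4 of the 24 were high in more than 1 list and 4 in none. Of the 6 cells high in the basal list, 3 were also high in the club list. In all, 10 cells were high in more than 1 list and no doublet caller was run.

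Since the classes and the members were both chosen from the reads of these cells, and the cells share 1 mouse, every ratio below is a description of this mouse with no test, and the cells are not replicates. A ratio sets the CPM of the summed reads of a class against that of all other kept cells, so that the 4 classes' ratios share cells. Intervals are exact 95% intervals for counting error only, and reads may be copies of the same molecule. Class genes were also read in other classes: *Sftpc* was read in 45 of 45 type 1 cells, at 100 CPM or more in 22 of them with a median of 97.6 CPM, against 161808 CPM in type 2 cells. For that reason the number of cells at 100 CPM or more is given beside the number with a read for some carriers. For the others only the number with a read is given. Median depth was 468718 reads in type 1, 413806 in type 2, 960567 in Scgb1a1-high and 595068 in remaining cells, and the median mitochondrial share was 10.2%, 9.41%, 8.19% and 7.60%. *Sftpc* took 16.8% of the reads of type 2 cells and *Scgb1a1* took 30.8% of those of Scgb1a1-high cells, which lowers the CPM of every other gene there. Whether such reads are carried over between cells or made in the cell was not tested, nor was the part of depth and mitochondrial share in the values.

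Summed over all members, solute carriers took 7725 CPM in type 1 cells, 4020 CPM in type 2 cells, 3386 CPM in Scgb1a1-high cells and 7717 CPM in remaining cells. Cell by cell the sum ran from 2306 to 14817 CPM in type 1 cells (median 7179), from 788 to 5797 CPM in type 2 cells (median 3959), from 1291 to 7518 CPM in Scgb1a1-high cells (median 3861) and from 3341 to 12996 CPM in remaining cells (median 8074). The classes thus overlapped, with the medians of type 2 and Scgb1a1-high cells below those of the other classes. Thinned to 90000 reads per cell, the median number of members with a read was 17 in type 1, 14 in type 2, 16.5 in Scgb1a1-high and 15 in remaining cells, so that the number of carriers seen per cell was alike in the medians while the summed reads were not. By highest CPM, 45 members peaked in type 1 cells, 17 in type 2, 18 in Scgb1a1-high and 46 in remaining cells (35.7%, 13.5%, 14.3% and 36.5%), against 35%, 17.7%, 10.8% and 36.5% of all genes at the floor.

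The carriers were counted against all genes at the same floor. In type 1 cells 47 members (37.3%) were at least 2-fold higher than in all other cells, against 32.6% of the 8942 genes at the floor, and 46 (36.5%) were at least 2-fold lower, against 29.8%. In type 2 cells 15 members (11.9%) were higher against 14.1% of genes, and 84 (66.7%) were lower against 56.4%. In Scgb1a1-high cells 18 members (14.3%) were higher against 8.81% of genes, and 81 (64.3%) were lower against 60.3%. The 18 became 10 (8.62% against 9.58%) with a mitochondrial share under 0.10, and 6 (7.32% against 7.05%) at a floor of 20 CPM. At a floor of 5 CPM they became 24 (15.3% against 10.1%). With scran size factors 27 were higher (15.9% of genes), and with cells thinned to 90000 reads 22 were (8.51%). In remaining cells 47 members (37.3%) were higher against 31% of genes and 48 (38.1%) lower against 30.0%, and with scran size factors this split became 32 higher and 59 lower (20.2% and 42.4% of all genes). Without the cell with the most reads of each gene in the class, 31 members were higher in type 1 cells (19.6% of genes), 2 in type 2 cells (3.65%), 4 in Scgb1a1-high cells (2.24%) and 22 in remaining cells (15.6%). Lower were 63 in type 1 cells (47.9%), 90.5% of members in type 2 cells (79% of genes), 89.7% in Scgb1a1-high cells (82.6%) and 73 members in remaining cells (52.8%). This step takes reads from the class and none from the other cells, so by design it tends to lower the ratios. The median log2 ratio of the members was 0.13 in type 1 cells (0.13 over all genes), -3.37 in type 2 cells (-1.62), -2.26 in Scgb1a1-high cells (-1.70) and 0.12 in remaining cells (0.16), with a gene without reads in a class set at 3 counts. The type 2 median of the members lay below that of all genes by more than in the other classes, and with cells thinned to 90000 reads it was -2.33 (-1.70 over all genes).

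**Figure D1:**
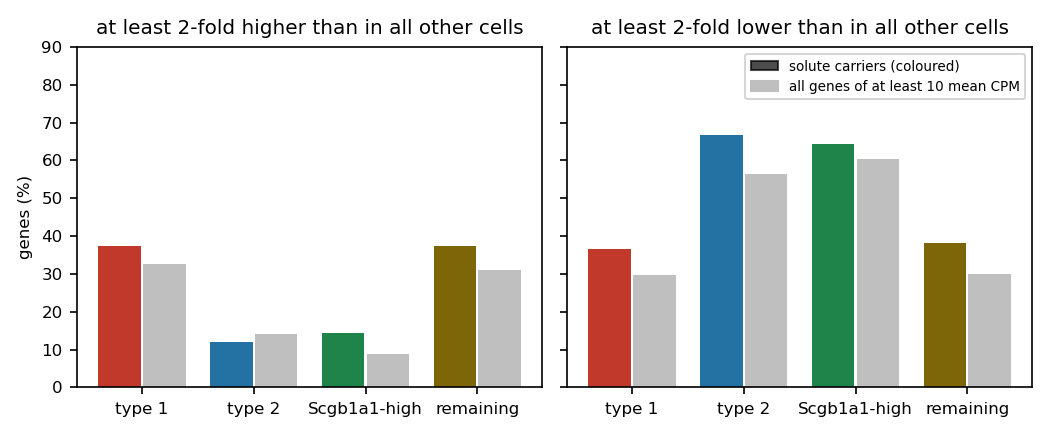
Share of genes, in percent, at least 2-fold higher (left) or lower (right) in a class than in all other kept cells, for the solute carriers (coloured bars) and all 8942 genes at the same floor of mean CPM (grey bars). The widest gap between a coloured and a grey bar is in the genes lower in type 2 cells, at 66.7% of carriers and 56.4% of all genes.

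Most carriers were seen in few cells. The median member had a read in 14.5 of 92 cells (all genes at the floor, 19), 31 members were seen in fewer than 10 cells, and in 40 (31.7%) more than 50% of the reads came from 1 cell, against 19.02% of all genes. The cell with the most reads held a median of 36.8% of a member's reads (28.9% for all genes). Only 10 members had a read in at least 46 cells: *Slc25a3*, *Slc25a4*, *Slc25a5*, *Slc38a2*, *Slc39a4*, *Slc39a8*, *Slc3a2*, *Slc44a2*, *Slc6a14* and *Slc6a6*. Because 1 cell can make a 2-fold difference, a stricter rule was read beside it. This rule asked for a 2-fold difference in summed and in mean CPM, also without the cell of the class with the most reads. It also asked for reads in at least 50% of the cells on the higher side. For a lower call no cell outside the class was left out, so there 1 such cell can still make the difference.

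**Figure D2:**
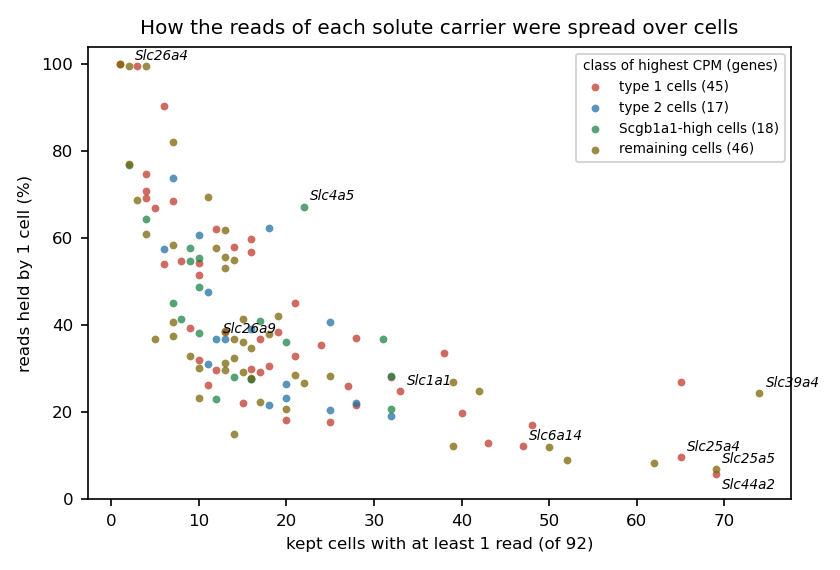
Each point is 1 solute carrier, placed by the number of the 92 kept cells with at least 1 read (x axis) and by the percent of its reads held by 1 cell (y axis), and coloured by the class of its highest CPM. Most points lie to the left, 31 of them under 10 cells, and of the few widely read carriers at the right *Slc44a2*, *Slc25a4* and *Slc25a5* each hold less than 10% of their reads in any 1 cell, whereas *Slc39a4*, read in 74 cells, holds 24.4% in 1.

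By the stricter rule 5 carriers (3.97% against 4.66% of genes) were higher in type 1 cells, *Slc44a2*, *Slc6a14*, *Slc1a1*, *Slc39a8* and *Slc25a4*, and 1 (0.794% against 5.75%) was lower, *Slc25a5*. They carry choline, amino acids, zinc and adenine nucleotides, and are described in turn, with the place of each gene in the GRCm38 genome.

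*Slc44a2* (chr9:21320698-21355028, plus strand), a choline transporter-like protein of plasma and mitochondrial membranes, was the carrier read in the most type 1 cells. It had a read in 42 of 45 type 1 cells and at least 100 CPM in 36 of them, from 0 to 1959 CPM with a median of 382 CPM. It had a read in 7 of 11 type 2 cells (2 at 100 CPM or more), in 7 of 12 Scgb1a1-high cells (1) and in 13 of 24 remaining cells (2). The classes overlapped, through 9 type 1 cells under 100 CPM and 5 cells of other classes at or above it, and thinned to equal depth the cells with a read were 42, 6, 3 and 5. The summed level was 432 CPM (424 to 441) in type 1 cells. In type 2 cells it was 56.7 CPM (50.4% in 1 cell), in Scgb1a1-high 30.4 CPM (69.9% in 1) and in remaining cells 18.8 CPM (71.4% in 1). The log2 ratio for type 1 cells was 3.85 (3.76 to 3.94) or 14.4-fold. It was 3.79 without the top cell, 3.33 among the cells of the first 10 chip columns and 5.77 among those of the last 10.

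*Slc6a14* (chrX:21714896-21742355, plus strand), which takes up neutral and cationic amino acids with sodium and chloride, was uneven among type 1 cells. It had a read in 33 of 45 type 1 cells and at least 100 CPM in 21, from 0 to 1991 CPM with a median of 6.37 CPM, so that about as many type 1 cells were near 0 as were high. Elsewhere it had a read in 3 of 11 type 2, 5 of 12 Scgb1a1-high and 6 of 24 remaining cells, with 1, 1 and 3 of them at 100 CPM or more. The summed level was 344 CPM (337 to 352) in type 1 against 18.99, 23.1 and 57.4 CPM in the other classes, a log2 ratio of 3.16 (3.08 to 3.25), 3.01 without the top cell. Among the remaining cells, 905 of its 907 reads stood in those high in the ciliated list (136.8 CPM, 4 of 12 cells), and those high in the basal list had 0.403 CPM.

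The promoters of both are shown because they have the 2 highest log2 ratios of the 5 carriers higher in type 1 cells by the stricter rule, from 250 bases before to 50 after each RefSeq start (GRCm38.p6), with *Slc44a2* having 2 starts. The 4 motifs searched on both strands were CCAAT (bound by NF-Y), TATAAA (the TATA box), TGANTCA (bound by AP-1) and GGAATG (bound by TEAD factors). Capitals mark a match. Over all 32851 promoters of this length 37.4% held CCAAT, 13.6% TATAAA, 7.81% TGANTCA and 14.7% GGAATG, with a median G and C content of 52.7%.
Slc44a2, chr9:21320469-21320768, plus strand: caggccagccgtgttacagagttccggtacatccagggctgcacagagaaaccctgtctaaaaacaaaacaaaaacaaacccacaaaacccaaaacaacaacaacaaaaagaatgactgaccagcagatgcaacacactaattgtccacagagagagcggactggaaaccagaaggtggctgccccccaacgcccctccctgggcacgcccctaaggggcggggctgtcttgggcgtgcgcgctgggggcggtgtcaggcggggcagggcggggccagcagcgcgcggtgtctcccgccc
Slc44a2, chr9:21337578-21337877, plus strand: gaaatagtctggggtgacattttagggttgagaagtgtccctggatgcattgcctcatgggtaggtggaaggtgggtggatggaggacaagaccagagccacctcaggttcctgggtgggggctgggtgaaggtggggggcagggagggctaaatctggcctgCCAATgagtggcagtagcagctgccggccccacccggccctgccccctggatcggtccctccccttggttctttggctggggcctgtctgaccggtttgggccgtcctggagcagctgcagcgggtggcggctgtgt
Slc6a14, chrX:21714650-21714949, plus strand: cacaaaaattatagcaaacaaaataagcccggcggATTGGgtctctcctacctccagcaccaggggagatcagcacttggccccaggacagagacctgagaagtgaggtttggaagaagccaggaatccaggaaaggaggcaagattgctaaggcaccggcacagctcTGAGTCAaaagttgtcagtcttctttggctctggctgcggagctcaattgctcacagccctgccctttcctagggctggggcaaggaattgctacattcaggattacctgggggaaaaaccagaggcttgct

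The first *Slc44a2* window (60% G and C) held none of the 4 motifs and the second (63.3%) held 1 CCAAT. The *Slc6a14* window (52.7%) held 1 TGANTCA and 1 CCAAT, the latter on the minus strand. A match describes the letters in the window and does not show binding.

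*Slc39a8* (chr3:135825279-135888572, plus strand), a zinc, manganese and iron importer, had a read in 34 of 45 type 1 cells and at least 100 CPM in 20, from 0 to 2771 CPM with a median of 43.4 CPM. Type 2 cells came next, with a read in 6 of 11 and a sum of 131.2 CPM (122.6 to 140.4) against 306 CPM (299 to 313) in type 1 cells, and some type 2 cells lay above most type 1 cells. Of the type 2 reads 47.5% stood in 1 cell. In Scgb1a1-high cells it was read in 3 of 12 (8.90 CPM, of which 98% in 1 cell) and in remaining cells in 5 of 24 (27.7 CPM, of which 98.6% in 1 cell). None of the 12 cells high in the ciliated list had a read, where 3 counts would be 0.453 CPM. *Slc39a8* was thus read mainly in the alveolar classes, with a log2 ratio of 2.89 (2.80 to 2.97) for type 1 cells and -0.21 for type 2 cells (-0.88 without the top cell).

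*Slc1a1* (chr19:28835049-28913960, plus strand), the neuronal and epithelial glutamate, aspartate and cysteine transporter, had a read in 23 of 45 type 1 cells and at least 100 CPM in 11, from 0 to 7091 CPM with a median of 1.19 CPM. It had no read in any of the 11 type 2 cells, where 3 counts would be 0.463 CPM. Its summed level was 289 CPM (283 to 296) in type 1, 74.96 CPM in Scgb1a1-high (5 of 12 cells, 83.8% in 1) and 16.6 CPM in remaining cells (5 of 24), a log2 ratio of 3.13 (3.04 to 3.23) and 2.66 without the top cell. The glial glutamate transporter *Slc1a3* (named after its values were seen) was read in 9 cells, all in the first 10 chip columns: 2 of 45 type 1 cells (0.562 CPM), 2 of 11 type 2 cells (20.5 CPM), 2 of 12 Scgb1a1-high cells (65.6 CPM) and 3 of 24 remaining cells (85.2 CPM), none of the 3 high in the ciliated or basal list. Of the reads of this pair, *Slc1a1* made up 99.8% in type 1 cells, none in type 2 cells, 53.3% in Scgb1a1-high cells and 16.3% in remaining cells.

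**Figure D3:**
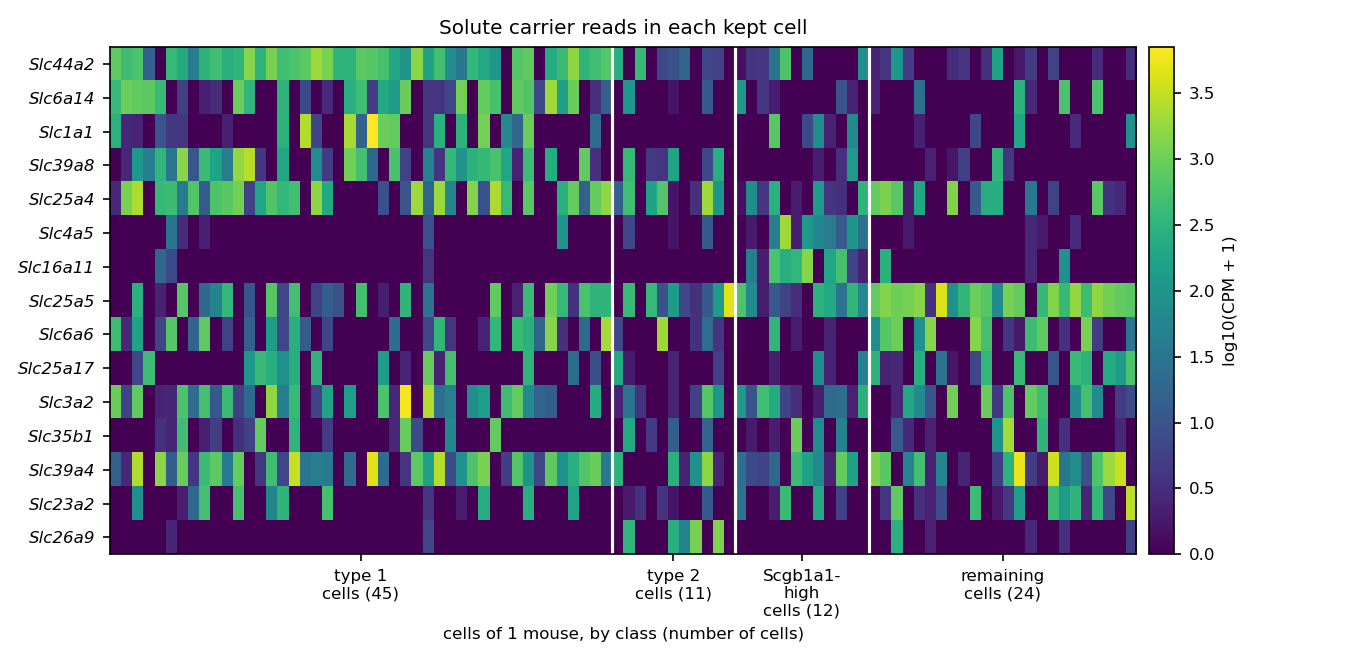
Level of 15 solute carriers (one line each) in each of the 92 kept cells of the mouse (one column each), as log10(CPM + 1), with the classes separated by white lines. *Slc44a2* is filled across nearly all 45 type 1 cells, *Slc25a5* across 23 of 24 remaining cells, *Slc4a5* and *Slc16a11* in 10 of 12 Scgb1a1-high cells each, and *Slc26a9* in 5 of 11 type 2 cells, while most other entries are patchy.

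The adenine nucleotide carriers exchange ADP for ATP across the inner mitochondrial membrane, and over all kept cells together 2 of their genes had opposite patterns. *Slc25a4* (chr8:46206797-46211284, minus strand), known as the heart and muscle form, had a read in 34 of 45 type 1 cells, 24 of them at 100 CPM or more, from 0 to 2347 CPM with a median of 218 CPM. *Slc25a5* (chrX:36795651-36798807, plus strand), known as the form of proliferating and most other cells, had a read in 26 of 45 type 1 cells, 14 of them at 100 CPM or more, from 0 to 992 CPM with a median of 2.73 CPM. In remaining cells the order was turned: *Slc25a5* was read in 23 of 24 cells, 20 of them at 100 CPM or more (median 833 CPM, highest 4317), and *Slc25a4* in 14 of 24, 8 of them at 100 CPM or more (median 2.25 CPM, highest 1304).

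The summed level of *Slc25a4* was 513 CPM (504 to 522) in type 1, 186 CPM in type 2, 69.3 CPM in Scgb1a1-high and 299 CPM in remaining cells, a log2 ratio of 1.36 (1.32 to 1.40) for type 1 cells, 1.19 without the top cell. This ratio was 0.66 in the first 10 chip columns and 2.94 in the last 10, so its size differed between the parts of the chip. The summed level of *Slc25a5* was 146 CPM (140.8 to 150.7) in type 1, 272 CPM in type 2, 211 CPM in Scgb1a1-high and 733 CPM (720 to 746) in remaining cells. Its log2 ratio was -1.69 for type 1 cells (-1.85 and -1.53 in these parts of the chip), and in remaining cells it was 3.99-fold higher than in all others (log2 ratio 1.95 to 2.04, and 2.10 and 1.87 in the chip parts). All 12 cells high in the ciliated list had at least 100 CPM of *Slc25a5*, with a sum of 1181 CPM, and 5 of the 6 cells high in the basal list had a read, with a sum of 507 CPM.

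As a share of the reads of the pair, *Slc25a4* made up 77.9% (77.2 to 78.5) in type 1 cells, 40.6% in type 2, 24.7% in Scgb1a1-high and 28.95% in remaining cells. It made up 19.5% in the cells high in the ciliated list and 19.8% in those high in the basal list. *Slc25a4* had the more reads in 26 type 1 cells and *Slc25a5* in 12, while in the 12 cells high in the ciliated list *Slc25a5* had the more reads in all 12. In type 1 cells the share was 78.5% in the first 10 chip columns and 77.2% in the last 10. It differed between these parts in type 2 cells, at 58.8% (5 cells) and 25.4% (6 cells), in remaining cells, at 39.97% and 7.11%, in the cells high in the ciliated list, at 30.6% and 7.79%, and in those high in the basal list, at 24.9% and 2.64%. In the 19 type 1 cells removed for their mitochondrial share it was 37.4% (35.4 to 39.4), with *Slc25a4* ahead in 8 and *Slc25a5* in 6, and 1 cell held 54.4% of the *Slc25a4* reads and 1 cell 40.8% of the *Slc25a5* reads.

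**Figure D4:**
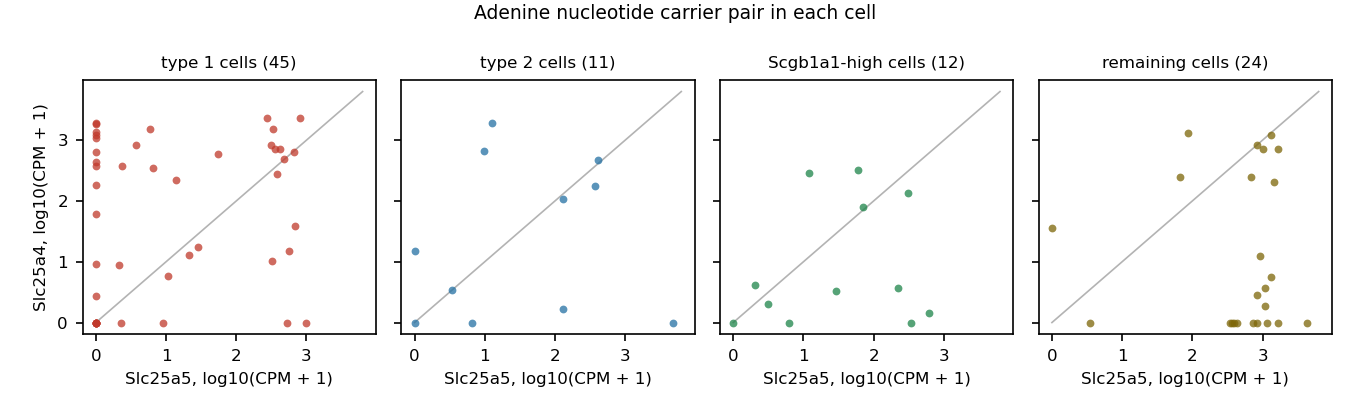
*Slc25a4* (y axis) against *Slc25a5* (x axis) in each kept cell, both as log10(CPM + 1), by class, with a grey line where both are equal. Of the type 1 cells 26 lie above the line and 12 below it, and of the remaining cells 4 lie above and 20 below.

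The promoters of the pair are shown side by side because these genes encode closely related carriers and differed between classes in their share of the reads, with the same window, source and motifs as above.
Slc25a4, chr8:46211013-46211312, minus strand: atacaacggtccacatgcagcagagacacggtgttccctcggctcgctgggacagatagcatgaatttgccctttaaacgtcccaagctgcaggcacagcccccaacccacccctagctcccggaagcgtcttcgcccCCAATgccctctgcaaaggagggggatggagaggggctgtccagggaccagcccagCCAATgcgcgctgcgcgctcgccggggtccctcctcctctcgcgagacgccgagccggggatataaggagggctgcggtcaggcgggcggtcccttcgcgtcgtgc
Slc25a5, chrX:36795347-36795646, plus strand: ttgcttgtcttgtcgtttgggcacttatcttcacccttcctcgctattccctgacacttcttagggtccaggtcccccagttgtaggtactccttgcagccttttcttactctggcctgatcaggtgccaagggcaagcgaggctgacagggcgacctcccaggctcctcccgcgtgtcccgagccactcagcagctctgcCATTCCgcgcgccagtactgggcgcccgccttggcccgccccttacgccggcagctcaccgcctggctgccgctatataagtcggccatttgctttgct

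The *Slc25a4* window (65.7% G and C) held 2 CCAAT and the *Slc25a5* window (61%) held 1 GGAATG, on its minus strand, printed as its reverse complement. Neither held TATAAA or TGANTCA.

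The 21 Slc25 members, *Slc25a4* and *Slc25a5* included, summed to 1881 CPM in type 1, 1174 CPM in type 2, 947 CPM in Scgb1a1-high and 2759 CPM in remaining cells, and to 3696 CPM in the cells high in the ciliated list. In remaining cells 8 of the 21 were at least 2-fold higher and 4 lower (31% and 30.0% of all genes), and in type 1 cells 6 were higher and 6 lower (32.6% and 29.8%). *Slc25a17* (chr15:81318911-81360812, minus strand), which lies in the peroxisome membrane and carries cofactors such as CoA, was, with *Slc25a5* and *Slc6a6*, one of 3 carriers higher in remaining cells by the stricter rule (2.38% against 3.6% of genes), while *Slc44a2*, *Slc39a8* and *Slc6a14* were lower there (2.38% against 3.52%). It had a read in 15 of 24 remaining cells and in 16 of 45 type 1 cells, at 120 CPM and 70.6 CPM, a log2 ratio of 1.36 and 1.07 without the top cell. In the cells high in the ciliated list it reached 201 CPM in 10 of 12, and its ratio in remaining cells was 0.63 in the first 10 chip columns and 1.88 in the last 10. The phosphate carrier *Slc25a3* (named after its values were seen) was read in every class, in 29 of 45, 7 of 11, 9 of 12 and 17 of 24 cells, with a log2 ratio of -0.04 (-0.09 to 0.00) for type 1 cells.

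Amino acid and peptide carriers (27 members) summed to 2281 CPM in type 1, 598 CPM in type 2, 782 CPM in Scgb1a1-high and 1947 CPM in remaining cells. In type 1 cells 14 were at least 2-fold higher and 8 lower, and in type 2 cells 1 was higher and 20 lower, where the shares of all genes were 32.6% and 29.8%, and 14.1% and 56.4%. The heavy chain *Slc3a2*, the member of the group with the most reads, had a read in 32 of 45 type 1 cells and a sum of 427 CPM, but 1 cell held 40.9% of it and the log2 ratio of 1.47 became 0.75 without that cell. It was low in type 2 cells (34.3 CPM, 7 of 11 cells) and in the cells high in the ciliated list (21.2 CPM, 6 of 12), and 309 CPM in those high in the basal list (5 of 6). The 6 Slc7 members, among them light chains that pair with it and the non-carrier *Slc7a6os*, summed to 4.79 CPM in type 2 cells, where all 6 were at least 2-fold lower (56.4% of all genes). Without *Slc7a6os*, which held 90.3% of it, this sum was 0.463 CPM. The 6 members summed to 156 CPM in type 1, 38.5 CPM in Scgb1a1-high and 234.5 CPM in remaining cells.

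Within the group, relatives were read in different classes, in pairs picked after their values were seen. *Slc43a2*, a uniporter of large neutral amino acids, was read in 22 of 45 type 1 cells (153 CPM) and 7 of 24 remaining cells (1.39 CPM), whereas its relative *Slc43a3*, a purine nucleobase carrier, was read in 2 of 45 (0.0865 CPM) and 8 of 24 (262 CPM). *Slc43a2* made up 99.9% of the reads of this pair in type 1 cells and 0.528% in remaining cells. The type 1 ratio of *Slc43a2* was 4.09 in the first 10 chip columns and 0.06 in the last 10, so it rested on the first part of the chip. The lysosomal histidine and peptide carrier *Slc15a4* was read in 20 of 45 type 1 cells (86.1 CPM) and made up 81.7% of the reads shared with the peptide carrier *Slc15a2*, against 0.188% in remaining cells, where *Slc15a2* was read in 7 of 24 (67.2 CPM, 54.8% in 1 cell). *Slc15a4* made up 53.4% of the reads of this pair in type 2 cells and 1.53% in Scgb1a1-high cells. The order of this pair in type 1 cells turned over along the chip, with *Slc15a4* at 141.2 CPM and *Slc15a2* at 0.532 CPM in the first 10 chip columns, and at 13.2 CPM and 44.1 CPM in the last 10.

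The taurine carrier *Slc6a6* (chr6:91684053-91759066, plus strand) was higher in remaining cells by the stricter rule. It had a read in 15 of 24 of them and a sum of 300 CPM, against 159 CPM in 27 of 45 type 1 cells, a log2 ratio of 1.38 (1.32 to 1.44), 1.06 without the top cell, 1.47 and 1.26 in the chip parts. The reads stood mostly in the cells high in the basal list, 5 of 6 with a sum of 620 CPM. There *Slc6a14* made up 0.0650% of the reads of the pair, against 68.4% in type 1 cells. The carriers *Slc6a8*, *Slc7a6* and *Slc38a2* were named after their values were seen. The creatine carrier *Slc6a8* (14 of 45 type 1 cells, 153 CPM, 50.3% in 1 cell) was at 0.154 CPM in type 2 and 0.178 CPM in Scgb1a1-high cells. *Slc7a6*, a light chain for cationic and neutral amino acids, was read in 8 of 24 remaining cells (124.4 CPM) and in 5 of the other 68, at 0.259, 0.154 and 0.178 CPM in type 1, type 2 and Scgb1a1-high cells. *Slc38a2*, the stress-responsive neutral amino acid carrier, was read in all classes, at 147, 145, 133.2 and 315 CPM, and in 6 of the 6 cells high in the basal list (426 CPM).

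Metal carriers (18 members) summed to 1437 CPM in type 1, 864 CPM in type 2, 416 CPM in Scgb1a1-high and 1328 CPM in remaining cells. In the zinc importer family Slc39, 5 of 7 members were at least 2-fold higher and 1 lower in type 1 cells (1048 CPM in all), and all 7 were lower in Scgb1a1-high cells (109.1 CPM), with 32.6% of all genes higher and 29.8% lower in type 1 cells and 60.3% lower in Scgb1a1-high cells. In the zinc exporter family Slc30, all 5 members were higher in remaining cells (31% of all genes), at 243 CPM against 68.6 CPM in type 1 cells. *Slc39a4* (chr15:76612383-76617384, minus strand), the zinc importer of the intestine, was the carrier with the most reads of all metal carriers and was read in 39 of 45 type 1 cells (553 CPM, median 39.9 CPM) and 19 of 24 remaining cells (781 CPM, median 43.5 CPM). It was lower in type 2 cells (145 CPM, 6 of 11) and Scgb1a1-high cells (98.02 CPM, 10 of 12). In the cells high in the ciliated list it reached 1710 CPM in 10 of 12 cells and made up 71.8% of the metal carrier reads, but 58.6% of that stood in 1 cell. For remaining cells its log2 ratio was 1.10, was 0.11 without the top cell and differed in sign between the chip parts, -0.69 and 2.04. The iron and manganese importer *Slc11a2* (named after its values were seen) was read in 6 of the 12 cells high in the ciliated list (159 CPM) and at 0.259 CPM in 5 of 45 type 1 cells.

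In sugar and monocarboxylate carriers both alveolar classes lay below the other 2 classes. The 13 members summed to 136.01 CPM in type 1, 39.8 CPM in type 2, 430 CPM in Scgb1a1-high and 474 CPM in remaining cells, and the median cell had 4.47, 3.37, 417 and 357 CPM. Among the remaining cells, those high in the ciliated list summed to 743 CPM. Those high in the basal list summed to 153 CPM, close to type 1 cells. In type 1 cells 2 of the 13 were at least 2-fold higher and 9 lower (32.6% and 29.8% of all genes), and all 6 Slc16 members were lower (28.1 CPM, against 286 CPM in Scgb1a1-high and 231 CPM in remaining cells). The facilitative glucose transporter *Slc2a1* (named after its values were seen) was read in 4 of 45 type 1 cells, none at 100 CPM, and had 0.303 CPM there against 71.8 CPM in 4 of 12 Scgb1a1-high and 67.3 CPM in 8 of 24 remaining cells, of which 1 cell held 68.7% and 72.6%. *Slc2a12*, a glucose transporter also named after its values were seen, had the most reads of the group in type 1 cells (52.5 CPM, 12 of 45 cells, 56.1% in 1 cell).

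**Figure D5:**
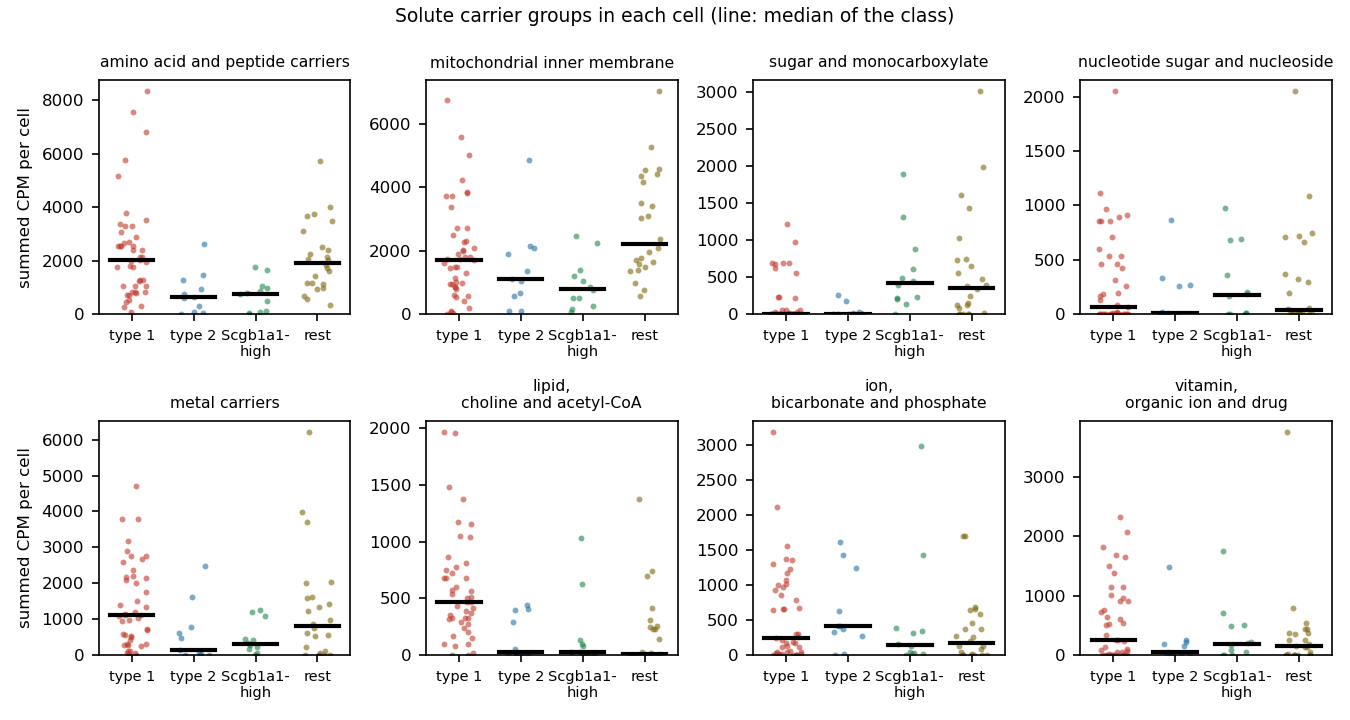
Summed CPM per cell of the solute carriers in each of 8 groups by substrate, for type 1, type 2, Scgb1a1-high and remaining (rest) cells, each point 1 cell and each line the median of a class. The median type 1 cell has 466 CPM of lipid, choline and acetyl-CoA carriers and 4.47 CPM of sugar and monocarboxylate carriers, and the classes overlap in every group.

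By the stricter rule 2 carriers were higher in Scgb1a1-high cells (1.59% against 1.04% of genes). *Slc16a11* (chr11:70212752-70216417, plus strand), a carrier of the monocarboxylate family, had a read in 10 of 12 Scgb1a1-high cells and at least 100 CPM in 6, from 0 to 1401 CPM with a median of 114.4 CPM. It was read in 3 of 45 type 1 cells (0.821 CPM), in none of 11 type 2 cells (3 counts would be 0.463 CPM) and in 3 of 24 remaining cells (14.9 CPM, 83.8% in 1). The log2 ratio was 4.82 (4.63 to 5.02), 4.41 without the top cell, and 4.27 and 6.22 in the chip parts. *Slc4a5* (chr6:83219828-83304945, plus strand), a sodium bicarbonate cotransporter, had a read in 10 of 12 and at least 100 CPM in 3, from 0 to 2006 CPM with a median of 33.97 CPM. 1 cell held 72.4% of these reads, and the log2 ratio of 5.73 (5.40 to 6.07) became 3.92 without it. Elsewhere *Slc4a5* was read in 5 of 45 type 1 cells (2.98 CPM), 3 of 11 type 2 cells (1.39 CPM) and 4 of 24 remaining cells (0.253 CPM). In these cells 7 carriers were lower by the same rule (5.56% against 6.37%): *Slc39a8*, *Slc6a14*, *Slc44a2*, *Slc6a6*, *Slc39a4*, *Slc25a4* and *Slc3a2*.

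No carrier was higher in type 2 cells by the stricter rule (1.71% of genes were), and 4 were lower (3.17% against 4.33%), *Slc6a14*, *Slc3a2*, *Slc44a2* and *Slc39a4*. The epithelial chloride transporter *Slc26a9* (chr1:131744022-131771504, plus strand, named after its values were seen) came closest. It had a read in 5 of 11 type 2 cells, 4 of them at 100 CPM or more, with a highest of 1251 CPM and a sum of 329 CPM (315 to 343). It was read in 2 of 45 type 1 cells (0.130 CPM), none of 12 Scgb1a1-high cells (3 counts would be 0.267 CPM) and 5 of 24 remaining cells (11.4 CPM, 97.2% in 1). Its log2 ratio for type 2 cells was 6.49 (6.27 to 6.71), 5.91 without the top cell. In type 2 cells it was at 131.4 CPM in 1 of 5 cells of the first 10 chip columns and at 480 CPM in 4 of 6 of the last 10. It made up 43.9% of the 748 CPM of the 18 ion, bicarbonate and phosphate carriers in type 2 cells, against 406 CPM of the group in type 1, 229 CPM in Scgb1a1-high and 334 CPM in remaining cells. The phosphate carrier *Slc20a1* (named after its values were seen) was read in 8 of 45 type 1 cells (37.9 CPM) and in none of 12 Scgb1a1-high cells.

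Lipid, choline and acetyl-CoA carriers (5 members) summed to 525 CPM in type 1 cells, 82.4% of it *Slc44a2*, and to 171, 91.9 and 214 CPM in type 2, Scgb1a1-high and remaining cells. The other Slc44 genes (named after their values were seen) did not share one pattern. *Slc44a3* was also higher in type 1 cells (17 of 45, 74.5 CPM, log2 ratio 2.27), *Slc44a1*, the widely used choline transporter, was lower there (10 of 45, 13.4 CPM, log2 ratio -2.06), and *Slc44a4* was read mainly in the cells high in the ciliated list (5 of 12, 107.1 CPM) and in 2 of 45 type 1 cells. *Slc44a2* made up 99.95% of the reads it shared with *Slc44a4* in type 1 cells and 9.22% in the cells high in the ciliated list. It made up 97.6% in type 2 cells, 74.8% in Scgb1a1-high cells and 100% of 7 reads in the cells high in the basal list.

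Vitamin, organic ion and drug carriers (12 members) summed to 587 CPM in type 1, 257 CPM in type 2, 213 CPM in Scgb1a1-high and 283 CPM in remaining cells. The ascorbate carrier *Slc23a2* had the most reads of them, at 161 CPM in 16 of 24 remaining cells and 372 CPM in 11 of the 12 cells high in the ciliated list, where the log2 ratio against all other kept cells was 3.03 (2.95 to 3.12) and 2.08 without the top cell. It had 0.403 CPM in the cells high in the basal list and 0.926 CPM in type 2 cells. In type 1 cells *Slc10a6*, a carrier of sulfated steroids (17 of 45, 153 CPM, log2 ratio 3.62), and *Slc52a3*, a riboflavin carrier (12 of 45, 142 CPM, log2 ratio 5.15), were named after their values were seen. The level of *Slc52a3* stood mainly in the first 10 chip columns, at 244 CPM in 10 of 26 type 1 cells against 5.72 CPM in 2 of 19 in the last 10. *Slc10a6* had no read in type 2 cells and *Slc52a3* none in Scgb1a1-high cells. Nucleotide sugar and nucleoside carriers (11 members) were at 349, 166, 264 and 294 CPM in the 4 classes, the smallest ratio of highest to lowest summed level among the 8 groups, with *Slc35b1*, a carrier of the endoplasmic reticulum, at 87.6, 39.4, 90.8 and 73.03 CPM. The sugar carrier *Slc50a1* (named after its values were seen) fell in none of the groups by its family number and was read in 28 of 92 cells, at 123.9 CPM in type 1 cells (56.7% in 1 cell), 3.40 CPM in type 2, 13.1 CPM in Scgb1a1-high and 84.5 CPM in remaining cells.

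Transporters outside the Slc symbols gave some context. Of 29 such genes listed, 23 were counted and 16 reached the floor, with 4 at least 2-fold higher and 3 lower in type 1 cells, 4 and 8 in type 2, 2 and 7 in Scgb1a1-high and 2 and 3 in remaining cells. Of all genes 32.6% and 29.8%, 14.1% and 56.4%, 8.81% and 60.3%, and 31% and 30.0% were, in the same order. The organic anion carrier *Slco3a1* (named after its values were seen) was at 575 CPM in 41 of 45 type 1 cells, and at 24.9, 16.6 and 33.6 CPM in the other classes, a log2 ratio of 4.46. Of the partner subunits, basigin was read in 45 of 45 type 1 (1216 CPM), 11 of 11 type 2 (421 CPM), 12 of 12 Scgb1a1-high (360 CPM) and 23 of 24 remaining cells (734 CPM). Its relative embigin (*Emb*) was at 462 CPM in 9 of 12 Scgb1a1-high cells and 91.6 CPM in 16 of 45 type 1 cells. In type 1 cells basigin was thus higher (log2 ratio 1.15) while all 6 Slc16 carriers were lower.

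Counts of some carriers cannot be assigned with certainty. All members were found in GENCODE release 21 of the GRCm38 annotation, 64 of them overlap another annotated gene (*Slc6a14*, *Slc39a8*, *Slc1a1* and *Slc6a6* of those described at length) and 2, *Slc25a5* and *Slc39a1*, have a named pseudogene with which reads could be split, and the strand setting of the counting was not given in the sources used here. Fibroblast markers (5 of 6 counted) were at 285 CPM in remaining cells, in 1 cell, and at or near 0 in the other classes.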

How the data were processed

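RNA of single sorted cells was copied and tagged on a Fluidigm C1 chip of 20 columns and sequenced. According to the submitters' processing notes, the authors used Trim Galore, FastQC, HISAT2 and featureCounts with build GRCm38, with no versions given, and deposited raw read counts of 17136 genes in 141 cells, 1 column per cell. Molecular identifiers are not mentioned in the sources used here, so a count is a read and can be a PCR copy.

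A mitochondrial share under 15%, which is among the filters of the study's methods, left 92 cells, and 126 solute carriers had a mean of at least 10 CPM. No 2 columns held identical values. The members, classes, gene lists and pairs were chosen with earlier results of these data known. Counts were summed per class and given as CPM, with exact Poisson intervals for levels and ratios and exact Clopper-Pearson intervals for shares, all at 95%. A gene with no read in a class was set at 3 counts. With 1 mouse no test was made. For each class the text names up to 6 members with the highest log2 ratio among those past 1, with reads in at least 50% of its cells and past 1 without its top cell, and up to 3 lowest in type 1 cells. It also names the member with the most reads in each group (2 of these are not reported here), the 2 members on each side of the floor, genes the study lists, and others said to be chosen after their values were seen. Python 3.11.15 with numpy 2.4.6, pandas 2.3.3, scipy 1.17.1 and matplotlib 3.10.9 was used, and scran 1.30.0 in R 4.3.3 for size factors. The computation was tested on simulated data. A cell was high in a marker list with 100 CPM or more of at least 50% of its genes. Promoters were matched by symbol to RefSeq (GRCm38.p6) and positions to GENCODE release 21. In all 16 alternatives were tried, 2 of them chosen after seeing the data.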

Additional observations from a re-analysis of the deposited data

How the results depend on the processing

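No paired analysis was possible because all cells came from 1 mouse and no groups share replicate numbers. Without the top cell of a gene's class, 31 members were at least 2-fold higher in type 1 cells (19.6% of all genes) and 2 in type 2 (3.65%). In Scgb1a1-high cells 4 were higher (2.24%), and in remaining cells 22 were higher (15.6%) and 73 lower (52.8%). Leaving out that cell tends by design to lower the ratios of all genes. A floor of 20 CPM left 82 members, of which 22 (26.8%, against 25.4% of all genes at that floor) were lower in type 1 cells, 8 higher (9.76%, 13.5%) and 51 lower (62.2%, 52.3%) in type 2 cells, 6 higher (7.32%, 7.05%) in Scgb1a1-high cells, and 29 higher (35.4%, 27.9%) and 31 lower (37.8%, 28.3%) in remaining cells, fewer members being counted. With a mitochondrial share under 0.10 (50 cells), 10 were higher in Scgb1a1-high cells (8.62%, against 9.58% of all genes). The other counts kept within 1.5 times under the alternatives run.

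The log2 ratio of 36 genes was recomputed in 1 class each, that of the rule that names the gene or of its highest level, and for 7 it was past 2-fold and changed sign, other classes not being counted. Without the top cell *Slc35c2* was at -5.06 in Scgb1a1-high cells, *Slc25a40* at -2.76 in remaining cells and *Slc44a1* at -0.37 in type 2 cells. In chip columns 1 to 10 *Slc39a4* was at -0.69, *Slc23a2* at -0.26 and *Slc15a2* at -3.23 in remaining cells, and in columns 11 to 20 *Slc35c2* was at -4.54 in Scgb1a1-high cells and *Slc44a1* at -0.56 in type 2 cells. With a mitochondrial share under 0.10 *Slc2a1* was at -0.033 in Scgb1a1-high cells. Of 497 values of these ratios over the alternatives, 183 stayed within their counting interval. The cause of these changes was not tested, beyond the cell or cells left out.

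With scran size factors the median log2 ratio of all genes moved by 0.18 in type 1, 0.45 in Scgb1a1-high and -0.76 in remaining cells, and with the class genes and mitochondrial reads left out of the total by -0.17 in type 1, 0.19 in type 2, 0.52 in Scgb1a1-high and -0.24 in remaining cells. The 2 alternatives chosen after seeing the data left out the type 2 cell of lowest *Sftpc* and the cells high in more than 1 marker list. With 11 type 2 and 12 Scgb1a1-high cells, 1 cell can decide a value, and at these depths a gene with no read may hold up to 0.463 CPM in type 2 cells and 0.267 CPM in Scgb1a1-high cells.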

Other observations

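The 49 cells left out for their mitochondrial share (15.1% to 36.9%) fell by the same minimums into 19 type 1, 16 type 2, 1 Scgb1a1-high and 13 remaining cells. Above they were used only for the share of the adenine nucleotide carriers and in the alternative without a mitochondrial filter. In the 19 type 1 cells *Slc44a2* was read in 17 (463 CPM), *Slc6a14* in 12 (261 CPM), *Slc39a8* in 12 (363 CPM) and *Slc1a1* in 5 (126.8 CPM). In the 16 type 2 cells *Slc44a2* was read in 10 (215 CPM), *Slc39a8* in 8 (209 CPM), *Slc6a14* in 3 (3.64 CPM) and *Slc25a4* in 3 (79.3 CPM), and *Slc1a1* again had no read. *Slc26a9* was read in 9 of these 16 (48.9 CPM, 60% of it in 1 cell) and in 2 of the 19 type 1 cells (0.376 CPM). *Slc16a11* was read in 3 of the 13 remaining cells (116.2 CPM, 88.8% in 1 cell). The 1 removed Scgb1a1-high cell had no read of *Slc16a11* or of *Slc4a5*. The order of the classes for *Slc6a14*, *Slc1a1* and *Slc26a9* in the removed alveolar cells was that of the kept cells, with *Slc44a2* in type 2 cells closer to type 1 cells than among the kept cells. For *Slc25a5* the order was turned, at 185 CPM in type 1 and 99.3 CPM in type 2 cells, against 146 and 272 CPM in the kept cells.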
